A study of Homo sapiens with 4 samples.

Results

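The peaks of p53 in untreated cells were compared between cells that carry wild-type (WT) p53 and cells that carry K120R p53, in which arginine replaces the lysine at residue 120. All peaks called by the authors in the 2 untreated libraries were taken as members, 488 from WT cells and 12 from K120R cells, which makes 500 of the 6849 peaks in the 4 lists of the series. A WT peak was followed to another list when it shared at least 1 bp with a peak there. Every condition was measured in 1 library, so no test between conditions was possible, the values have no replicate error, and the intervals given are exact 95% binomial (Clopper-Pearson) intervals that cover counting error only.

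All cells were H1299, a human lung cancer line that is null for endogenous p53, with stable expression of the Tet repressor (TetR) and a p53 form that is induced by tetracycline (Tet). The untreated groups were WT_NT and K120R_NT, which received no Tet, and the treated groups WT_TET and K120R_TET received Tet for 24 h before harvest. Chromatin was immunoprecipitated with the p53 antibody FL393-x after formaldehyde cross-linking, and each library was set against its own input. What the label "untreated" describes is therefore the absence of Tet in cells that hold the p53 construct, and the level of p53 protein in these libraries was not measured in the files used here.

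In the absence of an inducer, TetR occupies its operators and holds the promoter of the construct down, and residual transcription in this state is known as leakiness. p53 is a transcription factor that binds response elements (REs) made of a pair of decamers, each with a C-A/T-A/T-G core flanked by purines on one side and pyrimidines on the other, and it activates genes of cell cycle arrest, DNA repair and apoptosis. Lys120 lies in a loop of the DNA-binding domain that reaches into the major groove. Peaks without a p53 RE can also arise in ChIP-seq, for example at open promoters and at repeated sequence where many reads gather.

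The untreated libraries were nearly equal in depth, with 33059650 ChIP tags in WT and 34151544 in K120R, and MACS used the same fragment length of 64 bp for both, so fold enrichments (FEs, the pileup at the summit over the local background) can be set side by side where pileups are low. MACS kept 1 tag per position and strand, so a pileup could not exceed 128 fragments in WT_NT and 126.6 in K120R_NT, and the highest pileup of each list was at this ceiling. High pileups, and FEs made from them, are therefore compressed. The input was deeper in WT (41132992 tags) than in K120R (33770179 tags), and the part of this in the length of the lists was not tested. The Tet lists were called with 170 bp (WT_TET, 4326 peaks) and 68 bp (K120R_TET, 2023 peaks), so only the presence of a peak or its rank within its own list is compared with them. The lists hold regions above a q-value of 0.05, and a locus without a peak is one where none was called at this depth.

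The REs at the strongest untreated WT peaks are shown first, because they are what these peaks have in common, together with the RE under the one gene that had a peak in both untreated lists. Each is the best match to the p53 consensus within 75 bp of the summit, on the plus strand of GRCh37. Capitals mark the core positions of each decamer.
TGFA: gaaCATGcccaggCATGtct
IER5: aggCATGcccgggCATGtct
MTHFD1L: ggaCATGcctgggCATGtcc
MIR34AHG: gaaCAAGcccaggCAAGccc
CDKN1A: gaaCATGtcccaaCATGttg
BBC3: ggaCAAGtcaggaCTTGcag
These REs lie at chr2:70824222-70824241 (42914 bp upstream of TGFA, intergenic), chr1:181104278-181104297 (46452 bp downstream of the IER5 start, intergenic), chr6:151178483-151178502 (8324 bp upstream of MTHFD1L by summit, intergenic), chr1:9242203-9242222 (a non-coding exon of MIR34AHG), chr6:36644226-36644245 (CDKN1A, 5′ end) and chr19:47734577-47734596 (an intron of BBC3). The first 4 match the consensus without a mismatch, the CDKN1A RE has 2 mismatches and the BBC3 RE has 3, none of them in the core.

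Without Tet, WT p53 had 488 peaks with a median FE of 7.29 (range 1.53 to 61.3) and a median pileup of 17 fragments, and K120R p53 had 12 peaks with an FE of 2.37 to 9.23. The lowest −log10 p was 10.1 in the K120R list and 5.60 in the WT list, although both were called at a q-value of 0.05. Of the 488 WT peaks, 345 (70.7%) reached the lowest p of the K120R list, so the gap between the lists was still 345 to 12 at a common p. Of the 345, 297 overlapped a WT_TET peak. The number of WT peaks with an FE of at least 10 was 141 (28.9%, 24.9 to 33.1), and no K120R peak reached that value.

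**Figure D1:**
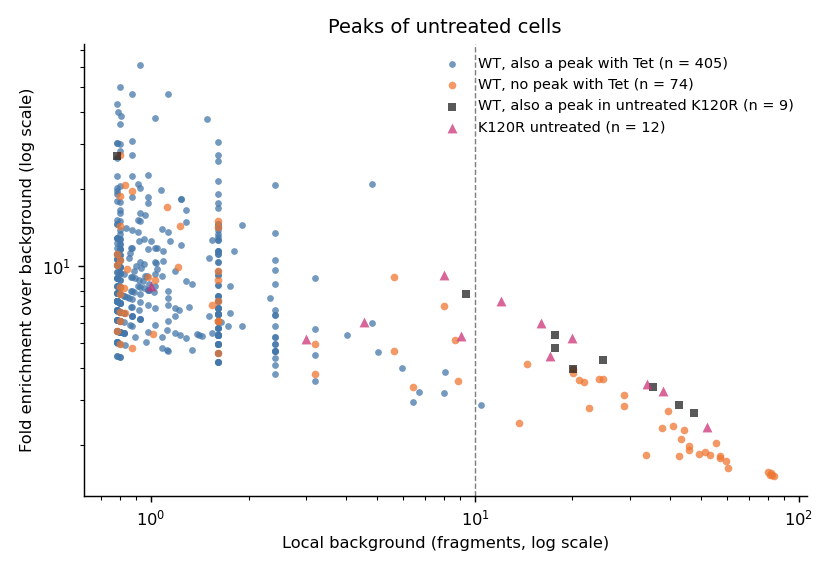
Fold enrichment (y axis, log scale) against the local background in fragments (x axis, log scale) for every peak of untreated cells. Blue and orange circles are WT peaks with and without an overlapping WT_TET peak, black squares are the 9 WT peaks that overlap a K120R_NT peak and triangles are the 12 K120R peaks. The dashed line marks a background of 10 fragments, to the right of which lie 41 WT peaks, all with an FE of at most 5.41.

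Of the 488 WT peaks, 414 (84.8%, 81.3 to 87.9) overlapped a WT_TET peak, whereas 9.27% of all WT_TET peaks overlapped an untreated peak. These 414 are called Tet-shared peaks below, and the other 74 untreated-only peaks. An overlap with a K120R_TET peak was found for 260 (53.3%, 48.7 to 57.8) of the 488, against 25.2% of all WT_TET peaks that overlapped a K120R_TET peak. Only 9 (1.84%, 0.847 to 3.47) overlapped a K120R_NT peak, and 0.445% of the K120R_TET peaks did so. The remaining 228 had a peak in neither K120R list.

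The 15 untreated WT peaks with the largest FE all overlapped a peak in both Tet lists, and none overlapped a K120R_NT peak. The first was the peak upstream of TGFA, a growth factor ligand of the EGF receptor, with an FE of 61.3, a pileup of 117 fragments and rank 64 among the WT_TET peaks. The peak beyond IER5, an immediate early response gene, had an FE of 49.9. A peak in an intron of APBB2, which encodes an adaptor of the amyloid precursor protein, had an FE of 46.9. An intronic peak in GAS6, a ligand of TAM receptor kinases, had an FE of 43.2. CDKN1A, which encodes the cell cycle inhibitor p21, followed with an FE of 40.2 and a pileup of 71 fragments.

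Ranks 7 to 15 fell to MIR34AHG, the host transcript of miR-34a (FE 38.7), RPS27L, a ribosomal protein paralog (FE 38.0), and MTHFD1L, an enzyme of mitochondrial folate metabolism (FE 37.7). They were followed by a peak in the intron of a lncRNA 42340 bp from HNRNPA3 (FE 36.0), by CAMK4, a calmodulin-dependent kinase (FE 30.9), and by a peak 116 bp upstream of DCP1B, a decapping factor, within CACNA1C (FE 30.7). The last were peaks 34134 bp upstream of PLAC8 (FE 30.3), 28278 bp upstream of the growth factor gene FGF2 (FE 30.3) and 1452 bp upstream of NEAT1, the scaffold RNA of paraspeckles (FE 29.9). The ranks of these 15 sites in the WT_TET list ran from 4 (CAMK4) to 196 (the HNRNPA3 locus). At the other end of the list, the WT peak closest to the q-value threshold lay at chr10:42528023-42528092, with an FE of 1.53 on a background of 83.6 fragments. A peak 114760 bp upstream of JCAD was also close to the threshold, with a pileup of 7 fragments and an FE of 4.44. Both passed with a −log10 q of 1.36 and 1.40.

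The untreated WT peaks were concentrated at the sites that were strongest with Tet. All of the top 10 and top 50 WT_TET peaks by FE had an untreated peak, as did 95 of the top 100 and 284 (56.8%, 52.3 to 61.2) of the top 500. By deciles of FE, the share with an untreated peak was 60.7% (56.0 to 65.4) in the top decile, 18.01% (14.5 to 22.0) in the next and 6.71% (4.54 to 9.50) in the one after that. In the lowest decile it was 0.694% (0.143 to 2.02). The median WT_TET FE was 25.7 at the 401 WT_TET peaks with an untreated peak and 7.11 at the 3925 without one. The strongest WT_TET peak without an untreated peak was at BTG4, rank 75, and the other 4 in the top 100 were at ALOX5, MYO16, METRNL and TJP1. These 5 genes were singled out after their values were seen.

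**Figure D2:**
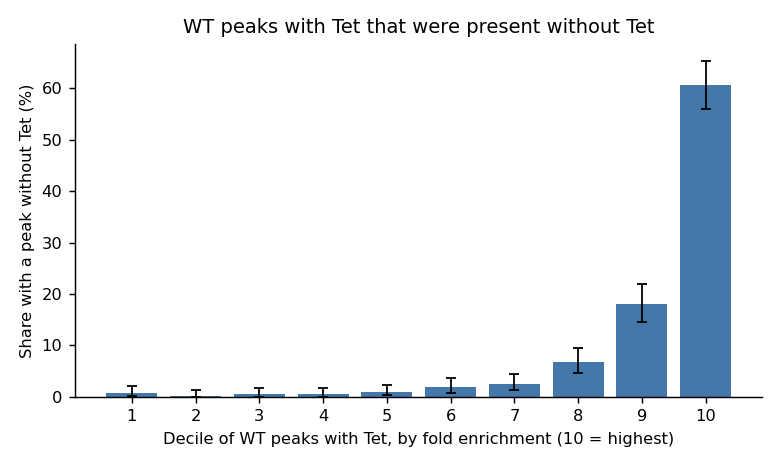
Share of WT_TET peaks that overlap a peak of untreated WT cells (y axis, percent), by decile of WT_TET fold enrichment (x axis, 10 is the highest, 432 or 433 peaks in each). Bars are shares in 1 pair of libraries and error bars are exact 95% binomial intervals. The share is below 3% up to the seventh decile and 60.7% in the top one.

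Among the p53 target genes of the lists, 36 of the 118 genes found in the annotation (30.5%, 22.4 to 39.7) had an untreated WT peak over the gene or within 5 kb upstream, against 1.38% of all 20176 protein-coding genes and 0.636% of 18702 lncRNA genes. The lists hold established p53 targets, chosen with earlier results of these data known, and count each gene once. With Tet, 69 of the 118 had a WT peak (11.2% of all protein-coding and 4.88% of all lncRNA genes) and 44 a K120R peak (5.51% and 2.42%). In untreated K120R cells 1 of the 118 had a peak (0.0149% of all protein-coding and 0.00535% of all lncRNA genes), which was BBC3. Of the 36 genes, 30 also had a K120R_TET peak, and the other 6 included TP53INP1, PLK3, BAX, EDN2 and NOTCH1. There were 34 genes with a peak in WT_TET and none in WT_NT.

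Of the genes that regulate p53 itself, 3 of 10 had an untreated WT peak and 6 of 10 a WT_TET peak. MDM2, the ubiquitin ligase that targets p53, had an intronic peak 760 bp from the gene start with a pileup of 28 fragments and an FE of 13.9. CCNG1, a cyclin that recruits a phosphatase to MDM2, had an FE of 10.2. TP53INP1, a cofactor of p53 in stress responses, had an FE of 5.66, and its best match within the summit window had 6 mismatches. No untreated peak was called at PPM1D or MDM4.

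For cell cycle arrest, 4 of 12 genes had an untreated WT peak. CDKN1A carried 2 peaks, the first at chr6:36643910-36644568 with an FE of 40.2 and a second at chr6:36644834-36645010 with an FE of 6.70. GADD45A, a stress sensor that acts in growth arrest, had an FE of 20.3, and the polo-like kinase genes PLK2 and PLK3 had 13.4 and 11.1. The PLK2 RE matched the consensus without a mismatch. These 4 genes also had WT_TET peaks, and CDKN1A, GADD45A and PLK2 had K120R_TET peaks.

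For apoptosis, 7 of 25 genes had an untreated WT peak and 17 of 25 a WT_TET peak. AEN, a nuclease induced by p53, had an FE of 27.2 at its gene start, and BBC3, which encodes the BH3-only protein PUMA, had 26.9. BAX, the pore-forming effector of the mitochondrial pathway, had an FE of 9.20 with a pileup of 23 fragments, and no peak was called there in either K120R list. The death receptor genes TNFRSF10B and FAS had FEs of 6.45 and 6.14, TRIAP1, an inhibitor of apoptosis, 8.75, and BCL2L1, the gene of BCL-XL, 4.69. All 7 had a WT_TET peak, and TNFRSF10B, FAS, TRIAP1, BCL2L1, AEN and BBC3 also had a K120R_TET peak. PMAIP1, which encodes NOXA, is among the 10 apoptosis genes with a WT_TET peak and none without Tet.

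DNA repair had 5 of 12 genes with an untreated WT peak: RPS27L (FE 38.0), RRM2B, a subunit of ribonucleotide reductase (21.5), REV3L, the catalytic subunit of polymerase zeta (18.7), DDB2, a sensor of UV damage (18.3) and PCNA, the sliding clamp (9.53). All 5 had K120R_TET peaks. Of the 23 genes of metabolism, redox and autophagy, 3 had an untreated peak (13.04%, 2.78 to 33.6), namely SESN1 (10.52), ACAD11 (8.97) and TIGAR (5.75), while 11 of 23 had one with Tet. Among secreted and membrane signalling genes 8 of 17 had an untreated peak and 10 of 17 a WT_TET peak. They were GDF15, a stress cytokine (14.6), the ephrin receptor gene EPHA2 (13.6), the cytokine gene LIF (12.3), EDN2, which encodes an endothelin (10.7), RAP2B, a small GTPase (9.12), NOTCH1 (6.14), FAS and TNFRSF10B. GDF15 carried 2 peaks.

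The RNA regulator ZMAT3 (FE 26.4) and the transcription factor ATF3 (15.1) had untreated peaks, as did 5 of the 8 non-coding RNA genes found. These 5 were MIR34AHG, NEAT1, PVT1 (11.4), LINC-PINT (6.37) and PANDAR, whose peaks are the CDKN1A peaks. The intervals of these shares are wide, for example 12.1 to 49.4% for the apoptosis genes and 15.2 to 72.3% for the DNA repair genes, and overlap one another.

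Counted over the whole annotation, 278 protein-coding genes had an untreated WT peak and 3 had an untreated K120R peak. The WT summits lay in introns in 235 cases, between genes in 201, in non-coding exons in 22, in untranslated regions (UTRs) in 20 and in coding exons in 10. There were 12 protein-coding genes with 2 peaks each, among them CDKN1A, BBC3, GDF15 and MAP3K1.

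A p53 RE, defined as a match with at most 3 mismatches to the 20-bp consensus within 75 bp of the summit, was found at 318 (65.2%, 60.8 to 69.4) of the 488 WT peaks. In windows of the same size 3 kb to either side, 26 of 976 (2.66%, 1.75 to 3.88) held one. The median distance from the RE centre to the summit was 17.5 bp. The Tet-shared and the untreated-only peaks differed: 317 of 414 (76.6%, 72.2 to 80.6) against 1 of 74 (1.35%, 0.0342 to 7.30). The second interval includes the 2.66% of the flanks. A match without any mismatch was present at 69 Tet-shared peaks and at none of the 74 untreated-only peaks (exact interval up to 4.86%). Of the untreated-only peaks, 62 (83.8%) had 5 to 7 mismatches, as most flanking windows did.

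**Figure D3:**
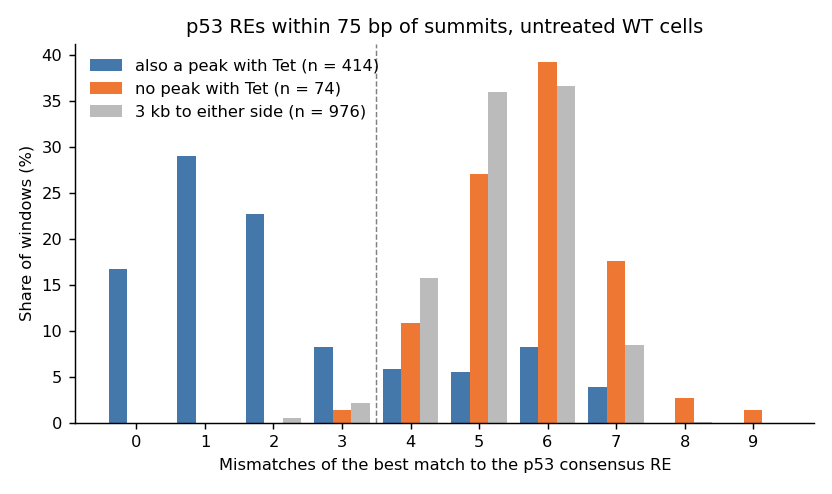
Share of windows (y axis, percent) by the number of mismatches of their best match to the p53 consensus RE (x axis). Blue bars are the 414 untreated WT peaks that overlap a WT_TET peak, orange bars the 74 that overlap none, and grey bars the 976 windows 3 kb to either side. Bars left of the dashed line count as REs, and the blue bars peak at 1 mismatch while the orange and grey bars peak at 6.

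With Tet, the REs at sites that also had an untreated peak were closer to the consensus. At the WT_TET summits with an RE, 380 had an untreated peak and 2991 had none. No mismatch was found in 23.9% of the first and 5.12% of the second group, and 1 mismatch in 37.6% and 15.5%, whereas 3 mismatches were found in 8.68% and 36.5%. The core was free of mismatches in 82.6% and 71.3%. By position, counting the symmetric positions of the palindromic consensus together, the share of G/C bps differed most at positions 9 and 12, with 73.8% of 760 bps at sites with an untreated peak and 55.2% of 5982 bps at the other sites. At positions 8 and 13 the shares were 43.9% and 37.1%, and at positions 3 and 18 they were 51.1% and 52.8%. These sites also had higher WT_TET FEs (median 26.3 against 7.75), and RE quality and FE were not separated here. A K120R_TET peak overlapped 63.1% of the 401 WT_TET peaks with an untreated peak and 21.4% of the 3925 without one.

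The K120R_NT list was short and mostly made of one locus. Of its 12 peaks, 9 lay in a block of 4302 bp at chr8:43092768-43097069, between genes, with POTEA as the nearest protein-coding gene at 52708 bp from the middle of the block. The same block held 8 of the WT_NT peaks, 3 WT_TET peaks and 7 K120R_TET peaks. Local backgrounds at the K120R peaks there were high, from 8.0 to 52.0 fragments, and the G/C content of the summit windows was low, from 18.5 to 22.5%. The best matches to the p53 consensus had 6 or 7 mismatches. K120R FEs were 2.37 to 9.23 and WT FEs 2.66 to 7.78, and the ratio of WT to K120R FE ran from 0.660 to 1.21. The pileups there were 80 to 128 fragments in WT and 52.4 to 126.6 in K120R, and over 60% of the ceiling at all 8 WT peaks and at 8 of the 9 K120R peaks. Neither pileups nor FEs can therefore show whether the 2 libraries were alike in this block.

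BBC3 was the only locus outside this block with a peak in both untreated lists, and the only K120R_NT peak with a p53 RE. The K120R peak at chr19:47734571-47734646 had a pileup of 15.8 fragments and an FE of 8.41, and the WT peak at chr19:47734453-47734978 had 47 fragments and an FE of 26.9. The summits were 12 bp apart. WT therefore exceeded K120R by 2.97 times in pileup and by 3.20 times in FE, and with 1 library each this difference has no replicate check. The same site had peaks in both Tet lists, and it holds the RE with a C-A-A-G and a C-T-T-G core printed above. The second untreated WT peak of BBC3, at chr19:47735710-47735954 with an FE of 9.98, overlapped no K120R_NT peak.

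Only 2 K120R_NT peaks overlapped no untreated WT peak. One lay between genes at chr1:815410-815539, 43856 bp upstream of SAMD11, with a pileup of 19.8 fragments and an FE of 5.19. The other lay at chr7:945206-945349 in a non-coding exon of ADAP1 and COX19, with a pileup of 32.6 fragments and an FE of 6.07. Their best matches to the p53 consensus had 6 and 9 mismatches. The 30 bp at each summit are shown because they carry no recognisable RE, the first being rich in A/T and the second a purine repeat, both on the plus strand of GRCh37 at chr1:815432-815461 and chr7:945214-945243.
chromosome 1 locus: ttatttcacagaaactaaaagatttttaat
ADAP1/COX19 locus: aaggagaaaggagaaaggagaaaggagaaa
Both loci had peaks in WT_TET and in K120R_TET, as had all 12 K120R_NT peaks. Seen from the K120R list, 10 of 12 peaks (83.3%, 51.6 to 97.9) overlapped a WT_NT peak, and counted as loci within 10 kb the list comes down to 4 loci, of which the block beside POTEA and BBC3 were common to both untreated lists.

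**Figure D4:**
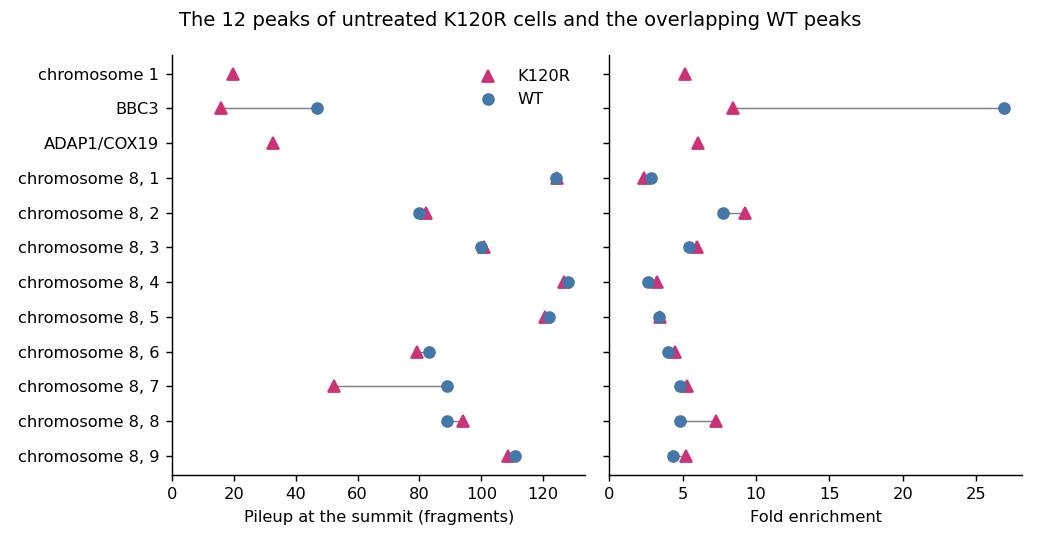
Pileup at the summit in fragments (left) and fold enrichment (right) of the 12 peaks of untreated K120R cells (triangles) and of the overlapping peaks of untreated WT cells (circles), 1 library each. The highest chromosome 8 pileups are at the ceiling of 128 (WT) and 126.6 (K120R) fragments. The others lie below it, most of them over 60% of it, and are compressed, so their closeness is no comparison. BBC3 is 2.97 times higher in WT, and the chromosome 1 and ADAP1/COX19 peaks have no WT peak.

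The 74 untreated-only WT peaks had a median FE of 4.64 (1.53 to 27.2), below the 7.63 of the Tet-shared peaks, and held 2 kinds of loci. In 33 of them the local background was at least 10 fragments, a limit set after the values were seen. Their FEs were 1.53 to 4.14, their median pileup was 93 fragments, and they took ranks 440 to 488 of the list. Among the Tet-shared peaks only 8 of 414 had such a background, and 7 of those were in the chromosome 8 block. The high-background loci included 4 peaks in MIR663AHG on chromosome 20 (FE 2.12 to 3.52) and peaks beside MIR3648 (FE 3.62) and MIR3687 (FE 1.63) on chromosome 21. The only untreated-only peak with an RE belonged to the MIR663AHG group, with an FE of 2.84 and 2 of its 3 mismatches in the core. These genes were named after their values were seen.

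The other 41 untreated-only peaks had a background below 10 fragments, an FE of 3.36 to 27.2 (median 8.23), and no RE (0 of 41, exact interval up to 8.60%). Of these, 20 (48.8%, 32.9 to 64.9) had their summit within 1 kb of the start of a protein-coding gene, compared with 33 of 414 (7.97%, 5.55 to 11.01) Tet-shared peaks and 164 of 4326 (3.79%) WT_TET peaks. The median G/C content of the summit window was 66.9% against 47.7% in the Tet-shared peaks. The observed to expected ratio of CpG was at least 0.6 in 33 of 41 (80.5%, 65.1 to 91.2) and in 50 of 414 (12.1%, 9.10 to 15.6). A high CpG ratio was not particular to these peaks. Of the 33 untreated-only peaks with a high background, 21 (63.6%, 45.1 to 79.6) had it, while 1 lay within 1 kb of a protein-coding gene start. A K120R_TET peak overlapped 1 of the 41.

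**Figure D5:**
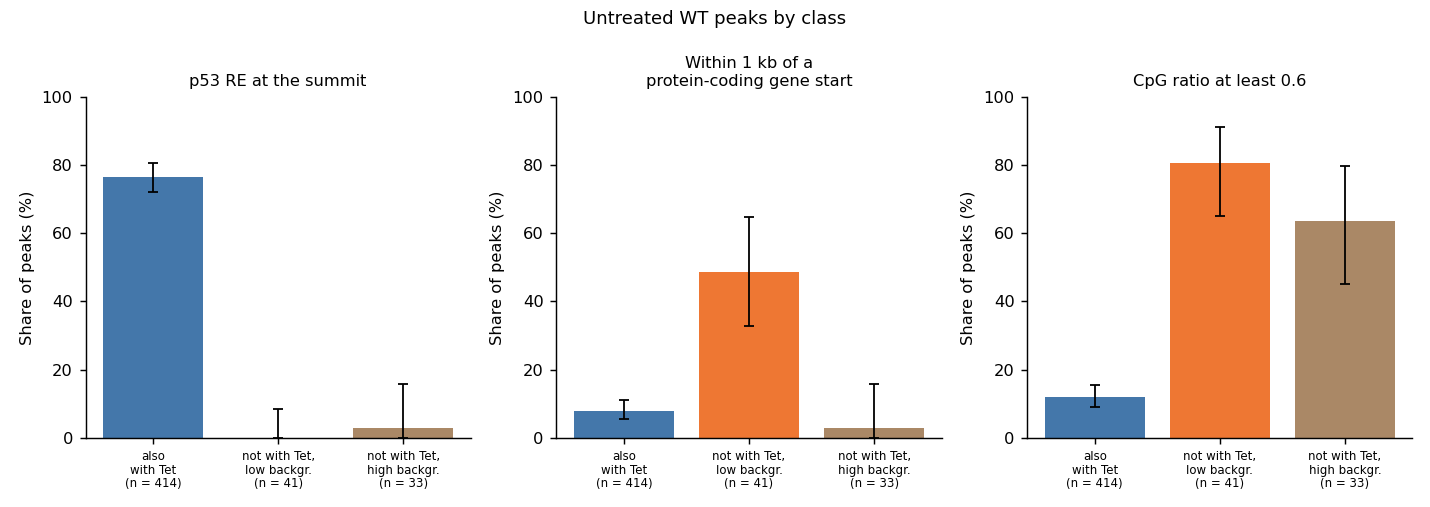
Share of untreated WT peaks (y axis, percent) with a p53 RE, near a protein-coding gene start and with a CpG ratio of at least 0.6, for the 414 Tet-shared peaks and the untreated-only peaks with a background below 10 (n = 41) or of at least 10 fragments (n = 33). Error bars are exact 95% binomial intervals. REs were found almost only in the first class (76.6%), and nearness to a gene start was most frequent in the second (48.8%).

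The 30 bp at the summit are given for 14 of the 15 untreated-only peaks with the largest FE, in the order of their FE, to show their base composition. They are on the plus strand of GRCh37, and capitals mark CG dinucleotides.
BAD/GPR137: cCGtaacccCGggCGccCGccagCGgCGca
STRBP: agcactCGcCGcCGgCGgccttatgcacct
SLC39A10: ggCGCGtgtaCGcccatagCGtagcaccca
DAGLA: ccccaCGacCGtCGccatggtcacCGctgg
DICER1: gcccccaCGctcCGctCGcccCGtggCGgc
NUDT3: ccatcttgggCGCGatgCGtcagCGgCGta
MAP3K1: ccctgCGctctcccCGccccctccctccct
EPC2: CGgcCGgCGtagCGccCGccCGCGgcCGcc
CBX3/HNRNPA2B1: gCGtaaaCGccctatcCGcCGccaatggCG
GABARAP: gctgctagCGtagcaccaccaactgacCGg
ATG16L2: gCGCGcCGCGgcCGagCGcaacctgCGcaa
SNORD3B-2: tctCGctacactgccaagcaggagCGaaca
RNU6-1: ctttctaCGtcaCGtattttgtactaatat
SEPTIN7: CGctcCGctggggctggtCGCGgagggggg
The first 7 lie at chr11:64053169-64053198 (a UTR of GPR137), chr9:126031090-126031119 (240 bp upstream of STRBP), chr2:196521790-196521819 (an intron of SLC39A10), chr11:61447778-61447807 (70 bp upstream of DAGLA), chr14:95623889-95623918 (an intron of DICER1), chr6:34360418-34360447 (a UTR of NUDT3, 13 bp from its start) and chr5:56111336-56111365 (25 bp upstream of MAP3K1). The other 7 lie at chr2:149402897-149402926 (an intron of EPC2), chr7:26240442-26240471 (a UTR of HNRNPA2B1, 325 bp upstream of CBX3), chr17:7145855-7145884 (102 bp upstream of GABARAP, in a non-coding exon), chr11:72533296-72533325 (a coding exon of ATG16L2), chr17:18967142-18967171 (292 bp from the start of SNORD3B-2), chr15:68132510-68132539 (142 bp upstream of RNU6-1) and chr7:35840784-35840813 (a UTR of SEPTIN7). All 14 windows hold at least 1 CG. Over the 151 bp around these 14 summits the G/C content ran from 27.8% at RNU6-1 and 52.98% at SNORD3B-2 to 79.5% at NUDT3.

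The largest FE of an untreated-only peak was 27.2, at chr11:64053019-64053428 in GPR137, 1008 bp upstream of BAD, which encodes a BH3-only protein. With a pileup of 48 fragments it ranked 19 of 488, next to BBC3 with 47 fragments and rank 20. It was followed by STRBP, an RNA-binding protein gene (FE 20.7), SLC39A10, a zinc transporter gene (19.7), DAGLA, a diacylglycerol lipase gene (18.8), DICER1, the gene of the miRNA-processing enzyme (17.01) and NUDT3, a Nudix hydrolase gene (14.96). MAP3K1, which encodes a kinase of the JNK cascade, had 2 such peaks, with FEs of 14.4 and 6.14, EPC2, a chromatin factor gene, had 14.4, and the locus between CBX3, a heterochromatin protein gene, and HNRNPA2B1 had 14.2. GABARAP, which acts in autophagy (11.2), ATG16L2 (10.53, in a coding exon) and the exportin gene XPO7 (10.1) had an FE over 10 as well. None of these 12 strongest loci had a peak in any of the other 3 lists. Over the 20 peaks near protein-coding starts, which belonged to 19 genes, the FE ran from 3.56 to 20.7.

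Small RNA genes were also found among these loci. Among the 41 peaks, 8 (19.5%, 8.82 to 34.9) had their summit within 1 kb of the start of a small RNA gene (nuclear, nucleolar, ribosomal, micro and other small RNAs), compared with 2 of 414 (0.483%, 0.0586 to 1.73) Tet-shared peaks and 38 of 4326 (0.878%) WT_TET peaks. Of the 33 untreated-only peaks with a high background, 4 (12.1%, 3.40 to 28.2) lay this close to one, and the interval overlaps that of the 41. The 8 peaks included the U3 small nucleolar RNA genes SNORD3B-2 (FE 9.94) and SNORD3A (4.98). They also included the U2 small nuclear RNA copies RNU2-59P (4.68) and RNU2-2P beside WDR74 (3.56). A peak 142 bp upstream of RNU6-1, a U6 small nuclear RNA gene, had an FE of 9.76. SNORD3A, RNU2-59P and RNU2-2P were named after their values were seen. These RNAs have many near-identical copies in the genome, so the assignment of reads to a single copy can be uncertain. The paper reports uniquely aligned reads, and the mapping at these loci was not tested.

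A short word, CGTA, was picked after the short words in these windows had been compared with those in CpG-rich Tet-shared peaks, and was then counted in all 151-bp summit windows on both strands. It was in 7 of the 14 windows of 30 bp at the strongest untreated-only peaks outside chromosome 8. In the 151-bp windows it was in 25 of the 41 (61.0%, 44.5 to 75.8), in 59 of 414 (14.3%, 11.03 to 17.99) Tet-shared peaks and in 7 of the 33 (21.2%, 8.98 to 38.9) untreated-only peaks with a high background. Among peaks with a CpG ratio of at least 0.6 it was in 24 of 33 (72.7%, 54.5 to 86.7) of the 41-peak group and in 13 of 50 (26.0%, 14.6 to 40.3) Tet-shared peaks. Among windows of the same size centred on the starts of protein-coding genes it was in 25.8% of the 12323 with such a CpG ratio and in 20.5% of all 20176. As the word was chosen from these peaks by their contrast with CpG-rich Tet-shared peaks, that contrast is no control for the CG in the word. The counts are a description, and their intervals do not allow for the choice.

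Most untreated-only peaks lay far from any WT_TET peak. The median distance to the nearest one was 130 kb, the shortest was 1132 bp, and 7 of the 74 had a WT_TET peak within 10 kb. The WT_TET list was called with a fragment length of 170 bp, and its shortest peak was 170 bp long against 64 bp in WT_NT. The part of this setting in the loss of short or weak peaks was not tested.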

How the data were processed

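Peaks of p53 ChIP-seq in H1299 cells were taken from the MACS 2.1.1.20160309 lists of 4 libraries (WT_NT, WT_TET, K120R_NT, K120R_TET, 1 each), grouped by their titles. Per the file headers and the study's methods, the authors mapped 75-bp reads with BWA-MEM to GRCh37, and peaks were called library by library over the matching input at a q-value of 0.05. The deposited pileup is a signal height in fragments at the summit after the authors' scaling of the deeper library. Fold enrichment, as the authors deposited it, divides the pileup by the local background of the MACS run, with 1 added to each. The authors' p-values and q-values were deposited on the −log10 scale. The narrow-peak and summit files repeat these lists and were not used.

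The local background was computed from pileup and fold enrichment. Peaks overlapped when they shared at least 1 bp. Genes came from GENCODE release 44 lifted to GRCh37, with the outermost annotated start of a gene as its start, and a gene had a peak over its body or up to 5 kb upstream. REs were the 20-bp window with the fewest mismatches to the p53 consensus, at most 3, within 75 bp of the summit. CpG ratios and G/C contents refer to the 151 bp around the summit. Of 120 genes in 8 p53 target lists, 118 were found. Members and lists were chosen with earlier results of these data known. Named loci are all K120R_NT peaks, the WT_NT peaks that overlap them, the 15 WT_NT peaks and the 15 untreated-only peaks with the largest fold enrichment, and list genes with a WT_NT peak, and any other locus was named after its values were seen. Results at some of these loci are not reported here. No p-value was computed, since the design has no replicates.

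Python 3.11.15 with numpy 2.4.6, scipy 1.17.1, pysam 0.24.0 and matplotlib 3.10.9 was used. In simulated data the RE search found 499 of 500 planted sites and the overlap rule 100 of 100 overlaps of 1 bp. The planted sites had at most 1 mismatch, so the recovery of sites with 2 or 3 mismatches was not checked. Alternatives were stricter thresholds, other overlap rules, 2 or 4 mismatches, REs anywhere in the peak and other gene windows.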

Additional observations from a re-analysis of the deposited data

How the results depend on the processing

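With 1 library per condition no value has a replicate check. No paired analysis was possible because the labels give no replicate numbers and each group holds 1 library. Of 59 alternative values for 11 results, 35 stayed within 1.5 times the main count or within the interval of the main share, and 24 did not.

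At a −log10 q of at least 10, untreated WT cells had 216 peaks in place of 488, K120R cells 10 in place of 12, 117 WT peaks overlapped a K120R_TET peak in place of 260, and 123 protein-coding genes had a WT peak in place of 278 (152 when the summit had to lie within 10 kb of the gene start). The K120R list held 4 loci when peaks within 10 kb were joined. The WT peaks that overlapped a K120R_NT peak fell from 9 to 3 at an FE of at least 5, since most of the chromosome 8 pairs lie below it, and K120R peaks without a WT_NT peak were then 5 in place of 2, and 1 at a −log10 q of at least 5 or 10. The untreated-only WT peaks numbered 49 and 31 at a −log10 q of at least 5 and 10, 35 at an FE of at least 5, and 41 without high-background loci, an alternative chosen after seeing the data.

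The share of WT peaks with an RE was 58.0% with at most 2 mismatches, 71.7% with at most 4, 72.2% at a −log10 q of at least 10, 72.4% at an FE of at least 5 and, in alternatives chosen after seeing the data, 70.9% without high-background loci and 79.5% when the search was centred on the overlapping WT_TET summit. Among untreated-only peaks it was 0% of 74 with at most 2 mismatches, 0% of 35 at an FE of at least 5, 0% of 41 without high-background loci and 12.2% with at most 4 mismatches. The share of summits near a gene start was 17.01% with all annotated genes. WT peaks outnumbered K120R peaks in every setting that was run on both untreated lists, with 216 to 10 as the narrowest gap.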

Other observations

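Of the 414 Tet-shared WT peaks, 97 had no RE within 75 bp of the untreated summit. Their median FE was 6.17, and 58 of them (59.8%, 49.3 to 69.6) overlapped a K120R_TET peak, close to the 200 of 317 (63.1%, 57.5 to 68.4) of those with an RE. The summit of the overlapping WT_TET peak had an RE within 75 bp in 380 of 401 cases (94.8%), with a median distance of 8.5 bp, against 17.5 bp at the untreated summits with an RE. Peak summits without Tet rest on a median of 16 fragments in the Tet-shared peaks. They were called with a fragment length of 64 bp, shorter than the 75-bp reads, against 170 bp in WT_TET. The part of this setting in their distance from the REs was not tested.

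Chromosome 8 held 49 of the 488 untreated WT peaks (10.0%), 41 of them outside the block that K120R_NT shares, and 5.52% of the WT_TET peaks.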
